A study of Mus musculus with 12 samples.

Results

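The genes of fatty acid oxidation and the targets of PPARA were followed as a set of 31 genes, chosen by name and found by symbol among the 49585 Ensembl genes counted in 12 libraries of whole mouse pancreas. By role the set held 4 regulators, 4 genes of fatty acid activation and carnitine entry, 4 acyl-CoA dehydrogenases, 7 genes of the later mitochondrial steps, 1 isomerase of both mitochondria and peroxisomes, 3 genes of electron transfer, 3 peroxisomal enzymes, 2 thioesterases, 1 ketone gene and 2 further PPARA targets of mitochondria. Cerulein is a cholecystokinin analogue that overstimulates the exocrine pancreas, and the study compared it with saline in C57Bl6 control mice (wild type, WT) and in a congenic Atf3-/- line on C57Bl6 (labelled knockout, labelled KO). Each group held 3 libraries, 1 for each animal: O1, O3 and N3 from WT with cerulein, W1, K5 and R3 from WT with saline, C2, L4 and C3 from labelled KO with cerulein, and S1, K4 and Q1 from labelled KO with saline. Per the labels all mice were 2 to 4 months old and were injected 4 times, with cerulein at 50 ug/kg or with saline, and the pancreas was removed after 4 h of treatment. The sources used here do not give sex, litter, or the cells and exons in which Atf3 was deleted.

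As background, long-chain fatty acids are activated to acyl-CoA, carried into mitochondria by the carnitine route, and shortened in repeated turns of dehydrogenation, hydration, a further dehydrogenation and thiolysis, with electrons passed on through the electron transfer flavoprotein. Peroxisomes run a parallel pathway for very long and branched chains, and in liver the acetyl-CoA can go on to ketone bodies. PPARA, a nuclear receptor that binds fatty acids and pairs with RXR, switches on many of these genes in liver and heart during fasting, and the coactivators PPARGC1A and PPARGC1B and the receptor ESRRA act beside it. The acinar cell, the main cell of the pancreas, burns fuel in its mitochondria to make and secrete digestive enzymes.

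The libraries held 18292997 to 32158629 counts, and values below are CPM (counts scaled to a common library size) on TMM-scaled library sizes. Atf3 itself had 775, 599 and 394 CPM in WT with cerulein, against 3.23, 1.13 and 5.28 CPM in WT with saline. For the labelled KO, Atf3 had 1370 (C2), 1640 (L4) and 20.7 (C3) CPM with cerulein, against 23.1, 7.44 and 13.5 CPM with saline. Reads of the targeted gene were thus not lower in the labelled KO, and which exons the allele lacks is not known here, so the genotype is given as the label has it. Library C3 stood apart: its Atf3 level was near that of the saline libraries, and its 10 most abundant genes took 53.9% of its counts, against 44.6% to 46.8% in the other cerulein libraries and 53.0% to 57.6% in the saline libraries. Results on the labelled KO with cerulein are therefore given with and without C3, which keeps its label throughout.

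Of the 31 genes, 29 passed the filter on low counts, which kept 14329 genes. Cpt1b, the muscle form of the carnitine acyltransferase of the outer mitochondrial membrane, and Ucp3, a mitochondrial carrier of muscle and brown fat, did not pass, with 23 and 26 counts over all 12 libraries. Of the 26 counts of Ucp3, 19 were in K4. The summed level of 8 skeletal muscle markers ran from 0.797 to 2.23 CPM over the 12 libraries, with 2 to 5 of the 8 at 0 in each. Its count is uncertain as well, since 78.6% of the 50-base stretches of Cpt1b also occur in Gm44502, which overlaps it on the same strand, and how the counting treated such reads is not known here.

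In WT pancreas the genes of fatty acid oxidation were lower with cerulein than with saline. By edgeR's quasi-likelihood test with p-values adjusted by Benjamini-Hochberg across the 14329 genes (threshold 0.05), 16 of the 29 genes fell, none rose and 13 did not pass, where 12.8% of all genes tested fell and 17.9% rose. The median log2 fold change was -1.03 over the 29 genes and 0.05 over all genes tested. In 21 of the 29 genes every cerulein library lay below every saline library, as in 24.9% of all genes tested. In whole tissue, fewer cells of a type and less RNA per cell cannot be told apart. Of the 12 fits that each left out 1 library, those without O1, O3, K5 and R3 called 8, 7, 10 and 10 of the genes lower, where 5.66%, 3.85%, 5.63% and 5.52% of all genes fell. The fit without C3 called 19, where 16.6% of all genes fell. C3 is no WT library, but the 4 groups of a fit share its estimate of the spread. Cpt2, Hadha, Eci1, Eci2, Acaa1a, Ehhadh and Acot2 passed in all 27 alternative fits.

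Other markers moved with cerulein as well. All 10 acinar markers had negative log2 fold changes in WT, with a median of -0.64, and 4 of them passed the test. Of all genes tested, 12.8% fell and 17.9% rose. The summed acinar marker level was 262000 to 327000 CPM in WT with cerulein, against 397000 to 468000 CPM in WT with saline. The 8 white adipocyte markers summed to 32.2 (O1), 30.2 (O3) and 476 (N3) CPM in WT with cerulein, against 177, 126 and 212 CPM in WT with saline, and none passed the test. Of 5 duct markers, 3 rose and 1 fell, and their sum was 219 to 322 CPM with cerulein, against 155 to 212 CPM with saline. This sum joins opposite moves in WT. Krt19 had 90.8 to 113 CPM with cerulein and 9.69 to 12.1 CPM with saline. Muc1 had 68.2 to 95.1 CPM with cerulein and 130 to 189 CPM with saline. The part of these cell types in the values below was not tested.

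With all 12 libraries, none of the 29 genes passed edgeR's test between cerulein and saline in the labelled KO, nor did any other gene (0.0% of 14329). At an unadjusted p below 0.05 there were 11 of the 29 and 22.7% of all genes. DESeq2 called 2 of the 29 lower, Acadm and Eci1 (0.837% of all genes lower), and limma-voom called none. Without C3, edgeR called 19 of the 29 lower and none higher, where 10.5% of all genes tested fell, and the median was -1.08 over the 29 genes and 0.00 over all genes tested. C3 lay above both C2 and L4 in 23 of the 29 genes (36.2% of all genes tested) and within the range of the 6 saline libraries in 22 (69.5% of all genes tested). The summed acinar marker level was 315000 (C2), 269000 (L4) and 429000 (C3) CPM with cerulein, against 359000 to 543000 CPM with saline in the labelled KO. In the fit without C3, the lists of genes that fell held 19 in WT and 19 in the labelled KO and shared 16, which is 84.2% of each. Of all genes tested in that fit, 16.6% fell in WT and 10.5% in the labelled KO. Their overlap was not counted, so whether 84.2% is high beside all genes that fell is not known here.

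**Figure D1:**
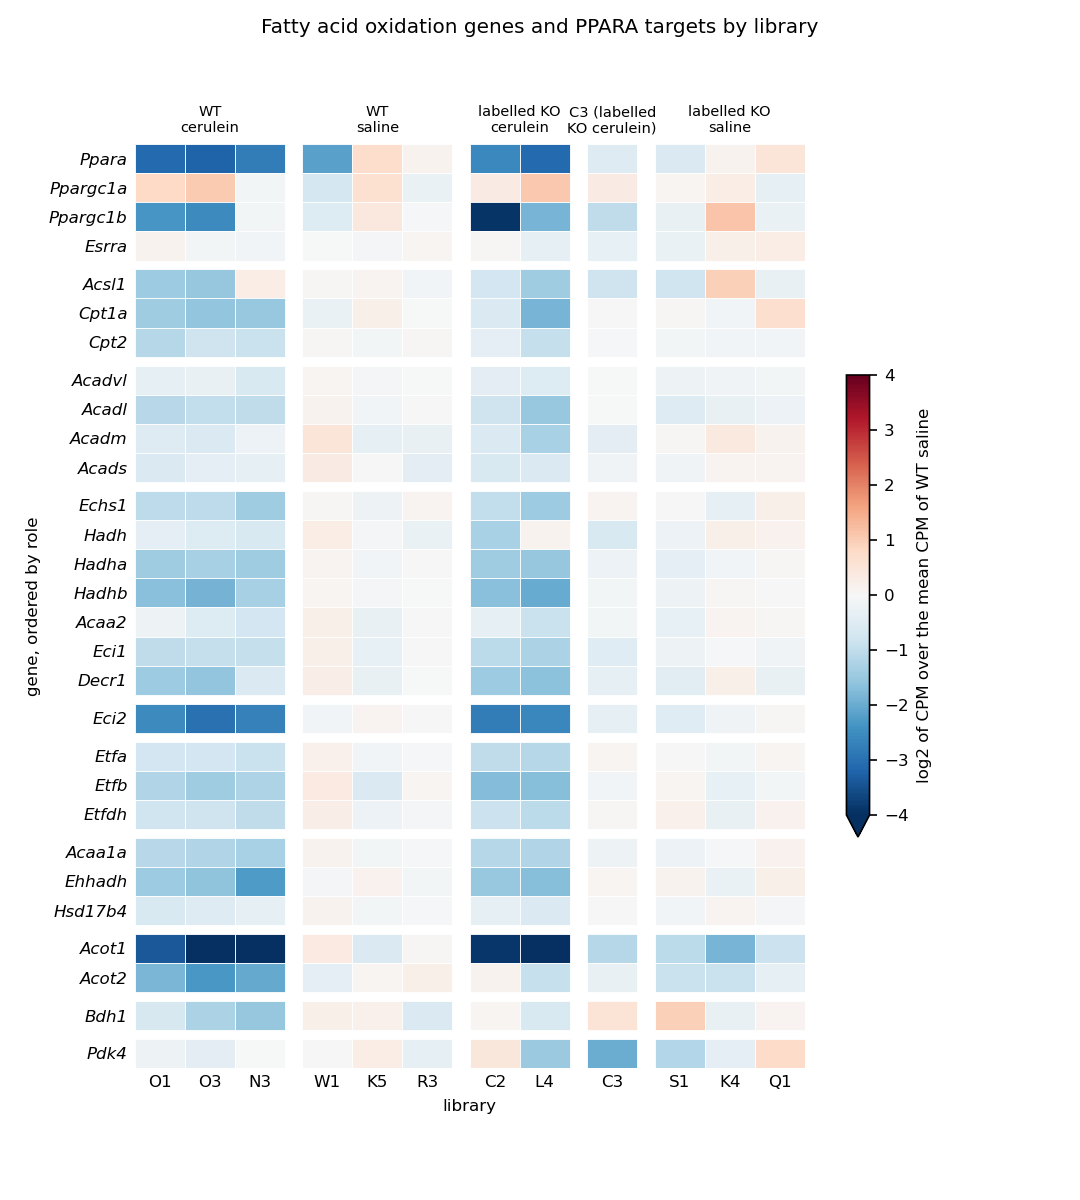
Heat map of the 29 genes that passed the filter (rows, ordered by role) in 12 libraries (columns), coloured by the log2 of CPM over the mean CPM of WT with saline. Colours end at 4 in either direction, and a lower value has the darkest blue. The WT cerulein libraries and C2 and L4 are blue in most rows, while C3 lies above both C2 and L4 in 23 of the 29 rows.

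Among the regulators, Ppara itself fell. Ppara, the fatty acid sensor (ENSMUSG00000022383, GRCm38 chr15:85734983-85802819, plus strand), had 0.368, 0.339 and 0.460 CPM in WT with cerulein, against 0.711, 5.29 and 3.51 CPM in WT with saline. The groups did not overlap, but W1 lay far below the other saline libraries and near the cerulein libraries. The log2 fold change was -3.01 ± 0.80 (SE), 8.06-fold lower, with an edgeR adjusted p of 0.0185. The call was lost in the fits without K5, R3, O1 or O3 and in limma-voom (adjusted p = 0.0599). Labelled KO libraries had Ppara at 0.529 (C2), 0.365 (L4) and 2.20 (C3) CPM with cerulein, against 2.13, 3.52 and 4.53 CPM with saline. C3 lay within the saline range, and without it Ppara fell by 2.92 ± 0.71 (SE) on the log2 scale (edgeR adjusted p = 0.0110). These values rest on 7 to 14 counts in the cerulein libraries other than C3.

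The window around the start of Ppara is shown because the receptor itself fell (RefSeq, GRCm38.p6, chr15:85735526-85735825, plus strand, 250 bases before the start and 50 from it on). This window lies inside the gene model given above, which begins further upstream, at 85734983 on the plus strand. The window at that upstream end is not shown. The capitals mark a match to GCGC, any base, then TGCGC, the element of the factor NRF1, which begins 31 bases before the RefSeq start.
Ppara: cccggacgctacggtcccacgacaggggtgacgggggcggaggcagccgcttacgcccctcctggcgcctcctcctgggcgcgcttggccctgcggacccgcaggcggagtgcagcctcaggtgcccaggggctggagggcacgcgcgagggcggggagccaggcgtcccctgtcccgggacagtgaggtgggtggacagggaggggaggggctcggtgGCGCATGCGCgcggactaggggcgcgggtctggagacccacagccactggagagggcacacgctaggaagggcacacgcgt
On both strands, 3 of the 28 windows of 26 genes of the set held this element (Etfdh, Etfb and Ppara, 10.7%), against 4.6% of 32851 windows of the same length. None of the 28 windows held the direct repeat bound by PPAR with RXR, a pair of AGGNCA half-sites 1 base apart (0.381% of all windows), the element TCAAGGTCA of ESRR receptors (0.423%) or the cyclic AMP element TGACGTCA (1.79%). These letters were searched exactly and only in these windows, and a match is not a binding site.

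The other regulators did not pass the test in WT with 12 libraries. Ppargc1a, the inducible coactivator of mitochondrial genes, had 2.39, 2.86 and 1.27 CPM in WT with cerulein, against 0.841, 2.16 and 1.14 CPM in WT with saline, and the groups overlapped (log2 fold change 0.65 ± 0.42 SE, edgeR adjusted p = 0.268). Ppargc1b, its relative, had 0.111, 0.0968 and 0.531 CPM with cerulein and 0.388, 0.771 and 0.551 CPM with saline in WT, where N3 lay among the saline libraries (log2 fold change -1.17 ± 0.76 SE, 2.25-fold lower, edgeR adjusted p = 0.266). In the fit without C3 and N3, added after seeing the data, its log2 fold change in WT was -2.40 ± 0.78 (SE, edgeR adjusted p = 0.0338). That fit leaves out the WT cerulein library that lay among the saline libraries, so it is no separate support for a fall. O1 and O3 held only 3 and 2 counts of Ppargc1b. Ppargc1b fell by 2.77 ± 0.91 (SE) on the log2 scale in labelled KO without C3 (edgeR adjusted p = 0.0417), with 1 count in C2 and 6 in L4. Esrra, the receptor of the mitochondrial programme, had 6.48 to 7.96 CPM with cerulein and 6.88 to 7.52 CPM with saline in WT. Its log2 fold change was -0.04 ± 0.19 (SE, edgeR adjusted p = 0.909), and its sign changed with the scaling.

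The transcripts of both carnitine acyltransferases that passed the filter fell in WT. Cpt1a, the carnitine acyltransferase of liver that sets the rate of entry (ENSMUSG00000024900, GRCm38 chr19:3322334-3385733, plus strand), had 29.3, 26.4 and 27.6 CPM in WT with cerulein, against 65.4, 91.1 and 78.0 CPM in WT with saline. All cerulein libraries lay below all saline libraries, and the means were 27.8 ± 1.48 CPM with cerulein and 78.1 ± 12.8 CPM with saline (SD, n = 3 each). The log2 fold change was -1.49 ± 0.39 (SE, edgeR adjusted p = 0.0173), and the call was lost without K5, O1 or O3. In the labelled KO, Cpt1a had 51.7 (C2), 21.7 (L4) and 79.1 (C3) CPM with cerulein, against 80.5, 71.1 and 125 CPM with saline. C2 lay between L4 and the saline libraries, C3 among the saline libraries, and without C3 the log2 fold change was -1.33 ± 0.35 (SE, edgeR adjusted p = 0.0174).

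Cpt2, the acyltransferase of the inner membrane, had 6.41, 7.99 and 7.54 CPM in WT with cerulein, against 14.7, 13.0 and 14.7 CPM in WT with saline. The groups did not overlap (log2 fold change -0.95 ± 0.21 SE, edgeR adjusted p = 0.0107). Cpt2 had 10.8 (C2), 7.29 (L4) and 13.7 (C3) CPM in labelled KO with cerulein, against 13.1, 12.8 and 12.9 CPM with saline, and without C3 it missed the threshold (log2 fold change -0.52 ± 0.18 SE, edgeR adjusted p = 0.0507). Acsl1, the long-chain acyl-CoA synthetase of fat and liver, did not pass in WT (log2 fold change -0.63 ± 0.53 SE, edgeR adjusted p = 0.393). Acsl1 had 7.11 (O1), 6.68 (O3) and 24.1 (N3) CPM in WT with cerulein, against 20.1, 21.0 and 17.6 CPM in WT with saline. N3 lay above all saline libraries of WT while O1 and O3 lay below them, and N3 also had the highest adipocyte marker sum of the WT libraries. K4, a saline library of the labelled KO, had the highest values of both over the 12 libraries, with 38.3 CPM of Acsl1 and a marker sum of 649 CPM. N3 and K4 also had the highest sums of macrophage markers (387 and 309 CPM, against 40.6 to 167 CPM in the other 10 libraries), neutrophil markers (70.4 and 60.6 CPM, against 1.43 to 26.5 CPM) and lymphocyte markers (231 and 113 CPM, against 1.40 to 105 CPM). The part of fat cells and leucocytes in the Acsl1 level was not tested. Exons of Gm45244 on the opposite strand overlap those of Acsl1 over 1039 bases.

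**Figure D2:**
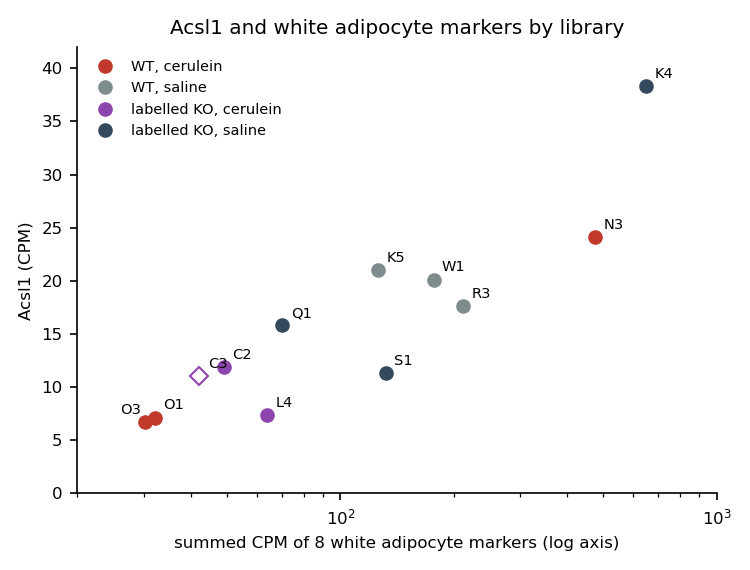
Acsl1 level (CPM, vertical axis) against the summed CPM of 8 white adipocyte markers (log axis), 1 point for each of 12 libraries, coloured by group, with C3 as an open diamond. K4 (38.3 CPM) and N3 (24.1 CPM) have the highest Acsl1 levels and the highest marker sums (649 and 476 CPM), and the points share library and scaling.

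Of the 4 acyl-CoA dehydrogenases, which take the first step of each turn and differ in the chain length they prefer, only Acadl passed in WT with 12 libraries. Acadl, the long-chain enzyme, had 23.9, 26.2 and 25.6 CPM in WT with cerulein, against 56.4, 46.3 and 51.7 CPM in WT with saline. The groups did not overlap (log2 fold change -1.03 ± 0.30 SE, edgeR adjusted p = 0.0243), and the call was lost in each of the 6 fits without 1 WT library and with library totals in place of TMM (adjusted p = 0.0510). The very-long-chain enzyme Acadvl had -0.43 ± 0.16 (SE, adjusted p = 0.0625), the medium-chain enzyme Acadm -0.44 ± 0.27 (adjusted p = 0.251) and the short-chain enzyme Acads -0.45 ± 0.21 (adjusted p = 0.125) as log2 fold change in the same edgeR fit. Without C3 Acadvl passed in WT as well (edgeR adjusted p = 0.0189), with the same log2 fold change of -0.43 and an SE of 0.12. Acadl, Acadm and Acads fell in labelled KO without C3, by 0.78, 1.11 and 0.65 on the log2 scale (edgeR adjusted p = 0.0138, 0.0174 and 0.0404), and Acadvl did not pass (adjusted p = 0.125). Acadm had 10.8 (C2), 6.64 (L4) and 12.2 (C3) CPM there with cerulein, against 16.8, 21.4 and 18.1 CPM with saline, so all 3 cerulein libraries, C3 included, lay below the saline libraries. Reads of Acadvl may include those of Dvl2 on the opposite strand, whose exons overlap its own over 1151 bases, as the sources used here do not say whether counting used the strand.

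Of the 7 genes of the later mitochondrial steps, 5 fell in WT, among them both subunits of the trifunctional protein, which carries out the last 3 reactions on long chains. Hadha, its alpha subunit with the hydratase and dehydrogenase, had 21.5, 22.8 and 21.2 CPM in WT with cerulein, against 61.5, 51.8 and 58.3 CPM in WT with saline. Hadhb, its beta subunit with the thiolase, had 7.62, 6.53 and 9.70 CPM in WT with cerulein, against 25.7, 23.2 and 23.9 CPM in WT with saline. In both genes the 3 cerulein libraries lay below the 3 saline libraries, with log2 fold changes of -1.39 ± 0.30 (SE) for Hadha and -1.61 ± 0.41 (SE) for Hadhb and edgeR adjusted p of 0.0105 and 0.0162. The call of Hadhb was lost without O1 or O3, and 19.7% of its 50-base stretches occur in other transcripts, most in the pseudogene Gm13910.

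Hadha had 21.5 (C2), 19.4 (L4) and 48.1 (C3) CPM in labelled KO with cerulein, against 43.2, 51.9 and 58.6 CPM with saline. Hadhb had 7.67 (C2), 6.01 (L4) and 22.7 (C3) CPM in labelled KO with cerulein, against 21.2, 25.3 and 24.6 CPM with saline. C2 and L4 were at the level of the WT cerulein libraries in both genes and C3 was within the saline range. Without C3 the log2 fold changes were -1.32 ± 0.16 (SE) for Hadha and -1.79 ± 0.19 (SE) for Hadhb, with edgeR adjusted p of 0.000203 and 9.19e-05. With C3 the edgeR adjusted p were 0.154 and 0.187.

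Both genes are transcribed away from each other from starts 273 bases apart in RefSeq, so they share the stretch between them. The window of Hadhb is shown for that reason (RefSeq, GRCm38.p6, chr5:30155003-30155302, plus strand). Its first 250 bases lie between the RefSeq starts, and none of the 4 elements occurs in it. The GENCODE model of Hadha begins inside this window, at 30155162 on the minus strand. Part of the window thus lies within that gene model.
Hadhb: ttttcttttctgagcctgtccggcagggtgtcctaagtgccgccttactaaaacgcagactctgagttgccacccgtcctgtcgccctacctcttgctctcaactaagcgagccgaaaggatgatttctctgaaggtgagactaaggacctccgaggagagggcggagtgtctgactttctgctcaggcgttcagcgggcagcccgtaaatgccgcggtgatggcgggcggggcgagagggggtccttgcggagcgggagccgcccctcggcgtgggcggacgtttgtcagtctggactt
The other genes of these steps also fell or stayed below the test. Echs1, the short-chain hydratase, had 19.2, 19.0 and 14.8 CPM in WT with cerulein, against 41.1, 34.5 and 42.7 CPM in WT with saline (log2 fold change -1.16 ± 0.34 SE, edgeR adjusted p = 0.0273). Eci1 and Decr1, auxiliary enzymes for unsaturated chains, fell by 0.97 ± 0.22 and 1.12 ± 0.38 (SE) on the log2 scale (edgeR adjusted p = 0.0115 and 0.0449). The groups of Echs1, Eci1 and Decr1 did not overlap in WT. The call of Echs1 was lost without any 1 of the 6 WT libraries, and that of Decr1 without W1, K5, R3, O1, O3, S1 or Q1, with no filter on low counts and with library totals. Hadh, the hydroxyacyl dehydrogenase for shorter chains, and Acaa2, the matching thiolase, did not pass in WT (edgeR adjusted p = 0.218 and 0.145). Hadh had 11.5 (C2), 31.3 (L4) and 18.2 (C3) CPM in the labelled KO with cerulein, against 24.2, 33.5 and 31.9 CPM with saline, so L4 lay within the saline range. L4 also had the highest islet marker sum, 11500 CPM, against 458 to 3580 CPM in the other 11 libraries, and the part of islet cells in the Hadh level was not tested. Without C3, Echs1, Eci1 and Decr1 fell in the labelled KO (log2 fold changes -1.19, -1.04 and -1.41, edgeR adjusted p = 0.00274, 0.00204 and 0.00859), and Hadh and Acaa2 did not pass (adjusted p = 0.336 and 0.108).

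**Figure D3:**
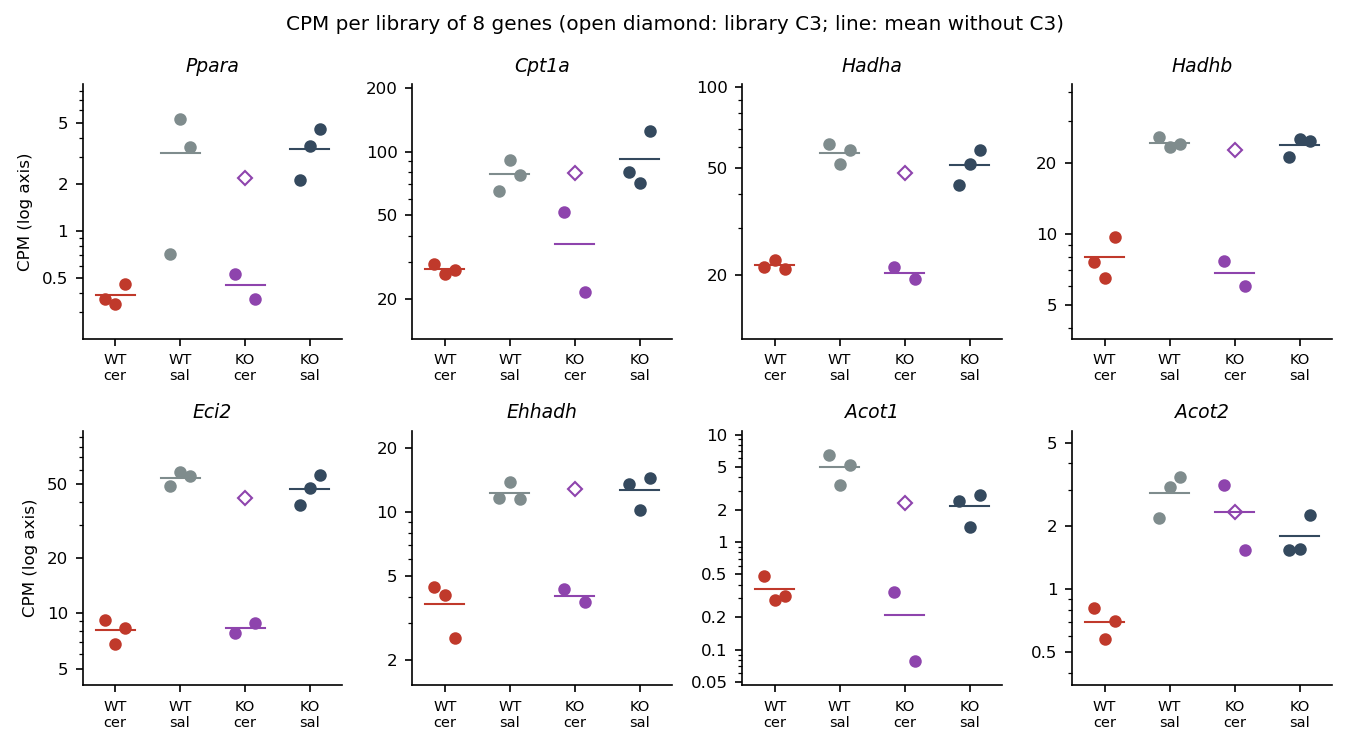
CPM of 8 genes (log axis, scaled for each gene) in the 4 groups, 1 point for each library, with C3 as an open diamond and a line at the mean of the group without C3. In Hadha, Hadhb, Eci2 and Ehhadh the WT cerulein libraries and C2 and L4 lie below all saline libraries, and in Acot2 C2 (3.17 CPM) lies above the labelled KO saline libraries.

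Eci2, an isomerase for unsaturated chains found in mitochondria and peroxisomes (ENSMUSG00000021417, GRCm38 chr13:34977748-35027096, minus strand), fell most among the enzymes of the oxidation steps in WT. It had 9.21, 6.78 and 8.25 CPM in WT with cerulein, against 48.6, 58.3 and 55.1 CPM in WT with saline. The groups lay far apart, with means of 8.08 ± 1.22 CPM with cerulein and 54.0 ± 4.93 CPM with saline (SD, n = 3 each). The log2 fold change was -2.74 ± 0.56 (SE), 6.67-fold lower (edgeR adjusted p = 0.00929). Eci2 had 7.82 (C2), 8.80 (L4) and 42.2 (C3) CPM in labelled KO with cerulein, against 38.4, 47.5 and 55.9 CPM with saline. C3 lay within the saline range, and without it the log2 fold change was -2.50 ± 0.20 (SE, edgeR adjusted p = 2.11e-05), against an adjusted p of 0.187 with it. The window around its RefSeq start is shown because of this fall (GRCm38.p6, chr13:34994095-34994394, minus strand), and it holds none of the 4 elements. It lies inside the gene model given above, which begins further upstream, at 35027096 on the minus strand. The window at that upstream end is not shown. Exons of Gm16984 on the opposite strand overlap those of Eci2 over 189 bases.
Eci2: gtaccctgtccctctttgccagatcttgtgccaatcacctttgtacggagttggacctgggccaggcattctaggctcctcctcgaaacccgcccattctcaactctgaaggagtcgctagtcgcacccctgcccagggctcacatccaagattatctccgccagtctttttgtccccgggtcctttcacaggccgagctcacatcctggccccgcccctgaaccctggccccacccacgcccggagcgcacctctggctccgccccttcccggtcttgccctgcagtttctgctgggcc

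The genes of electron transfer were lower as well. Etfb and Etfdh, the beta subunit of the electron transfer flavoprotein and the oxidoreductase that passes its electrons to ubiquinone, fell in WT by 1.27 ± 0.42 and 0.88 ± 0.28 (SE) on the log2 scale (edgeR adjusted p = 0.0409 and 0.0333). Etfa, the alpha subunit, had 23.1, 22.8 and 20.7 CPM in WT with cerulein, against 43.5, 34.2 and 36.8 CPM in WT with saline. Its groups did not overlap, but it missed the threshold with 12 libraries (log2 fold change -0.78 ± 0.28 SE, edgeR adjusted p = 0.0534). It passed without C3 (edgeR adjusted p = 0.000809), with the same log2 fold change and an SE of 0.13. The calls of Etfb and Etfdh were lost in the fits without W1, R3, O1, O3 or N3 and with no filter on low counts, that of Etfdh also without K5, and that of Etfb also without S1 or Q1 and with library totals. All 3 fell in labelled KO without C3, by 1.08 (Etfa), 1.60 (Etfb) and 1.01 (Etfdh) on the log2 scale (edgeR adjusted p = 0.000404, 0.00279 and 0.00376). Of the 50-base stretches of Etfb 44.8% occur in other transcripts, nearly all in Gm45233 on the same strand.

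The peroxisomal enzymes were lower too. Ehhadh, the bifunctional enzyme of the PPARA-inducible branch (ENSMUSG00000022853, GRCm38 chr16:21761287-21787807, minus strand), had 4.46, 4.07 and 2.55 CPM in WT with cerulein, against 11.7, 13.9 and 11.5 CPM in WT with saline. Acaa1a, the peroxisomal thiolase, had 18.6, 17.6 and 16.4 CPM in WT with cerulein, against 44.6, 37.2 and 39.6 CPM in WT with saline. Neither gene's groups overlapped, and the log2 fold changes were -1.74 ± 0.43 (SE) for Ehhadh and -1.21 ± 0.25 (SE) for Acaa1a (edgeR adjusted p = 0.0140 and 0.00936). Hsd17b4, the bifunctional enzyme for branched and very long chains, had 14.8, 16.2 and 18.0 CPM in WT with cerulein, against 25.5, 21.1 and 22.3 CPM in WT with saline. It missed the threshold with 12 libraries (log2 fold change -0.49 ± 0.17 SE, edgeR adjusted p = 0.0523). Without C3 it passed (edgeR adjusted p = 0.0142), with the same log2 fold change and an SE of 0.13. The 3 peroxisomal genes all fell in labelled KO without C3, by 1.66 (Ehhadh), 1.15 (Acaa1a) and 0.45 (Hsd17b4) on the log2 scale (edgeR adjusted p = 0.000827, 0.000393 and 0.0433). C3 had 12.9 CPM of Ehhadh, 35.3 CPM of Acaa1a and 23.1 CPM of Hsd17b4, each within the range of the 6 saline libraries. Of the 50-base stretches of Acaa1a 12.9% occur in other transcripts, most in Acaa1b. Exons of Myd88 on the opposite strand overlap those of Acaa1a over 290 bases.

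By compartment, 10 of the 17 tested genes of the mitochondrial steps fell in WT, with a median log2 fold change of -0.95, and 2 of the 3 peroxisomal genes, with a median of -1.21. In the labelled KO without C3 the counts were 12 of 17 (median -1.08) and 3 of 3 (median -1.15). Of all genes tested, 12.8% fell in WT and 10.5% in the labelled KO without C3. Per kb of exon, the highest levels of the set in WT with cerulein were those of Pdk4 (16.1 CPM per kb), Acadl (12.6) and Etfa (12.1), and in WT with saline those of Acadl (25.7), Etfa (20.8) and Pdk4 (18.7). The exon lengths join all annotated transcripts of a gene, so this order depends on the annotation. Without the division, Hadha had a higher mean in WT with saline (57.2 CPM) than Acadl (51.5 CPM).

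**Figure D4:**
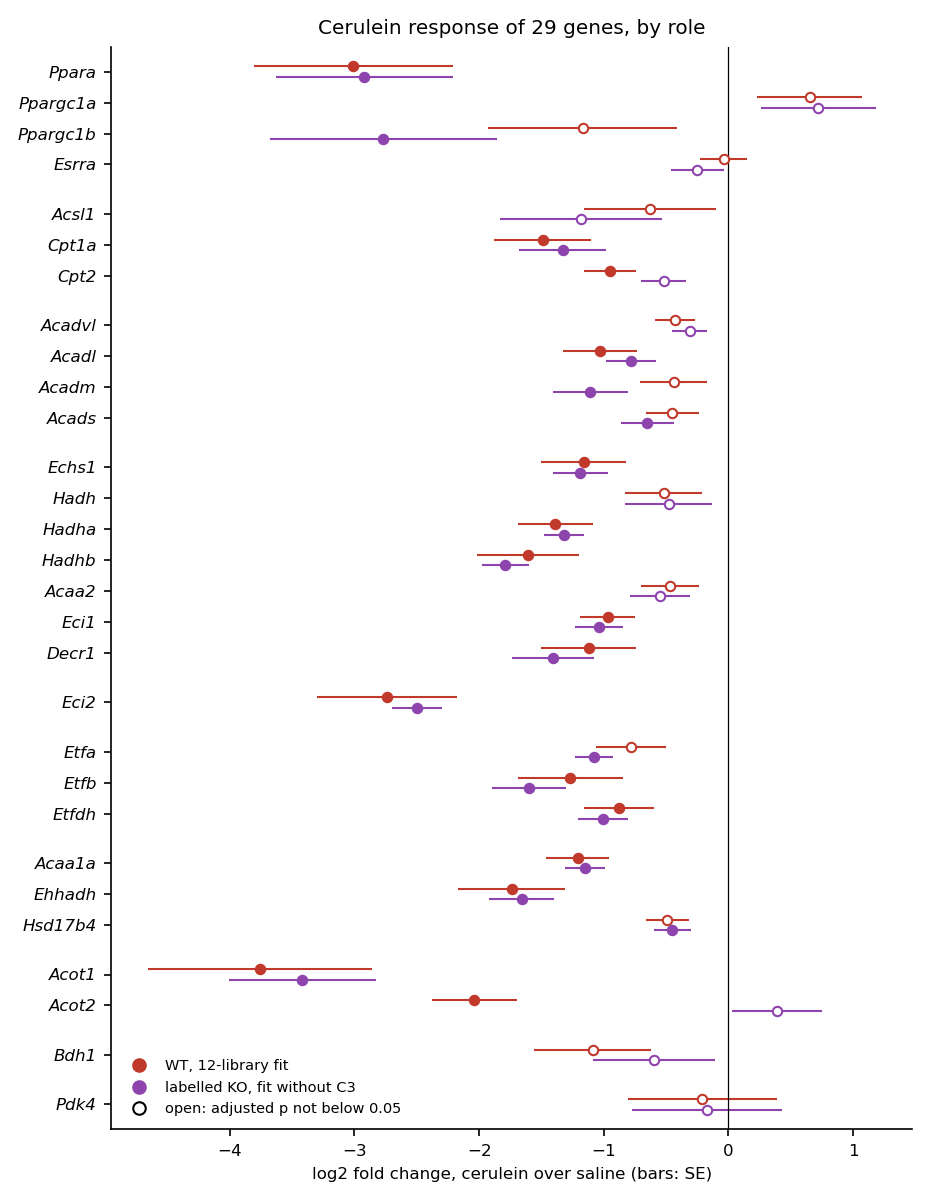
Log2 fold change of cerulein over saline (horizontal axis, bars are SE) for 29 genes ordered by role, in WT from the fit of 12 libraries and in labelled KO from the fit without C3. Filled points have an edgeR adjusted p below 0.05: 16 in WT and 19 in labelled KO, all to the left of 0. In labelled KO the value of Acot2 is to the right of 0 (0.39 ± 0.36).

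Of the thioesterases, which release free fatty acids from acyl-CoA, Acot1 fell in WT and in labelled KO without C3, and Acot2 passed the test in WT and not in labelled KO. Acot1, the cytosolic enzyme (ENSMUSG00000072949, GRCm38 chr12:84009490-84018371, plus strand), had 0.479, 0.290 and 0.318 CPM in WT with cerulein, against 6.47, 3.39 and 5.20 CPM in WT with saline. Acot2, the mitochondrial enzyme (ENSMUSG00000021226, GRCm38 chr12:83987861-83993873, plus strand), had 0.810, 0.581 and 0.708 CPM in WT with cerulein, against 2.20, 3.08 and 3.43 CPM in WT with saline. Neither gene's groups overlapped in WT. Acot1 had the largest fall of the 29 genes in this fit (log2 fold change -3.76 ± 0.90 SE, 13.6-fold lower, edgeR adjusted p = 0.0133), a call lost only in the fit without O3 (adjusted p = 0.0540). Acot2 fell by 2.04 ± 0.34 (SE) on the log2 scale (edgeR adjusted p = 0.00918).

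In the labelled KO, Acot1 had 0.340 (C2), 0.0781 (L4) and 2.30 (C3) CPM with cerulein, against 2.39, 1.38 and 2.74 CPM with saline. Acot2 had 3.17 (C2), 1.54 (L4) and 2.34 (C3) CPM there with cerulein, against 1.55, 1.56 and 2.26 CPM with saline. For Acot1, C2 and L4 were below and C3 within the saline range, while for Acot2 C2 and C3 were above it and L4 was just below it. Without C3, Acot1 fell by 3.42 ± 0.59 (SE) on the log2 scale (edgeR adjusted p = 0.00164) and Acot2 did not pass (log2 fold change 0.39 ± 0.36 SE, adjusted p = 0.442). The 2 genes lie on the same strand, 15617 bases apart, and 27.7% of the 50-base stretches of Acot2 and 19.2% of those of Acot1 also occur in other transcripts, mostly of the other gene of the pair, so their counts are uncertain to that extent. The counts were 12 to 22 for Acot2 in WT with cerulein and 50 to 84 in labelled KO with cerulein. Acot1 had only 13 (O1), 6 (O3) and 9 (N3) counts in WT with cerulein. In labelled KO with cerulein it had 9 (C2), 3 (L4) and 49 (C3) counts, so the size of its falls rests on few reads. Their windows are shown because Acot1 passed the test in labelled KO without C3 and Acot2 did not, while both fell in WT. They are from RefSeq (GRCm38.p6, plus strand, chr12:84009252-84009551 for Acot1 and chr12:83987611-83987910 for Acot2), and neither holds any of the 4 elements.
Acot1: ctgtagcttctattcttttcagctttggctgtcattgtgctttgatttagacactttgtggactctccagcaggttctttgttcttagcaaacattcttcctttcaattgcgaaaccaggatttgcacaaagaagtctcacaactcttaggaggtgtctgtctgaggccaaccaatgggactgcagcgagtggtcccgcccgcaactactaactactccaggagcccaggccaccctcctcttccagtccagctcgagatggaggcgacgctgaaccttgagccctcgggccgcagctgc
Acot2: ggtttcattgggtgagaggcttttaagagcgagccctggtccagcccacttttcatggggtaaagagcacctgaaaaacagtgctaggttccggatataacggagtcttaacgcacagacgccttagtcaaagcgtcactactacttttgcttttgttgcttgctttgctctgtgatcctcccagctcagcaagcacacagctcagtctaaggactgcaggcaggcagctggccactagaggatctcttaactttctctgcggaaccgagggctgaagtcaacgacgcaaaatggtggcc

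Bdh1 and Pdk4 did not pass in either genotype. Bdh1, the mitochondrial enzyme that interconverts ketone bodies, had 0.589, 0.387 and 0.318 CPM in WT with cerulein, against 1.10, 1.08 and 0.630 CPM in WT with saline, without overlap (log2 fold change -1.09 ± 0.47 SE, edgeR adjusted p = 0.100). Exons of Gm15743 on the opposite strand overlap those of Bdh1 over 533 bases. Pdk4, the kinase that shuts pyruvate out of the citric acid cycle when fat is burned, is a classic PPARA target in muscle and liver. Pdk4 had 56.3, 48.6 and 64.9 CPM in WT with cerulein, against 65.8, 80.1 and 50.7 CPM in WT with saline, and the groups overlapped (log2 fold change -0.21 ± 0.60 SE, edgeR adjusted p = 0.818). Its levels spread widely in the labelled KO, with 89.2 (C2), 23.4 (L4) and 16.6 (C3) CPM with cerulein and 28.9, 49.8 and 111 CPM with saline. C3 had the lowest level of Pdk4 of the 12 libraries.

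Between the genotype labels none of the 29 genes passed edgeR's test, with saline, with cerulein or in the difference of the cerulein responses, nor did any other gene (0.0% of 14329 each time). At an unadjusted p below 0.05 there were 1, 5 and 2 of the 29 genes, where 0.419%, 8.0% and 4.15% of all genes passed. Without C3 there were 1 (Acot1), 1 (Acot2) and 1 (Acot2), where 0.896%, 5.07% and 3.45% of all genes passed. limma-voom called none, and DESeq2 called 1 of the 29, Acot2, higher in labelled KO than in WT with cerulein (0.0489% of all genes higher). That log2 fold change of Acot2 was 1.73 ± 0.33 (SE, edgeR adjusted p = 0.604 and unadjusted p = 0.000297, DESeq2 adjusted p = 0.0242, or 0.116 without C3). All 3 labelled KO libraries with cerulein, C3 included, lay above the 3 WT libraries with cerulein. The difference of its responses, labelled KO minus WT, was 2.44 ± 0.46 (SE) on the log2 scale (edgeR adjusted p = 0.812, DESeq2 adjusted p = 0.0565), and without C3 it was 2.44 ± 0.49 (edgeR adjusted p = 0.999). With cerulein, 2 of the 29 genes, Acot2 and Bdh1, had all labelled KO libraries above all WT libraries (5.47% of all genes). Without C3, 2 genes lay above (9.49% of all genes) and 4 below (6.46% of all genes). With saline, Acadvl, Acadl and Acot1 had all labelled KO libraries below all WT libraries (2.74% of all genes), Acot1 with 2.39, 1.38 and 2.74 CPM in labelled KO against 6.47, 3.39 and 5.20 CPM in WT (log2 fold change -1.21, edgeR adjusted p = 1.0).

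Genes next to the set were counted in 6 pathway lists. Of all genes tested in WT, 12.8% fell and 17.9% rose, and the WT counts of each list stand beside these shares. Of 19 tested genes of the carnitine shuttle and other mitochondrial oxidation, 9 fell and 1 rose in WT, with a median log2 fold change of -0.84. Acad11, Acadsb and Acad12, further acyl-CoA dehydrogenases, fell by 1.63 ± 0.30, 1.48 ± 0.46 and 1.46 ± 0.35 (SE) on the log2 scale (edgeR adjusted p = 0.00918, 0.0328 and 0.0128). Of 18 tested genes of peroxisomal oxidation and import, 9 fell and none rose (median -0.76). Nudt7, a hydrolase of coenzyme A in peroxisomes, and Amacr, a racemase for branched chains, fell by 1.78 ± 0.41 and 1.70 ± 0.50 (SE) on the log2 scale (edgeR adjusted p = 0.0119 and 0.0258). Calls in these lists were lost for Acadsb without any 1 WT library and with no filter on low counts, for Acad12 without O3, and for Amacr without W1, K5, O1 or N3.

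The ketone list moved in both directions, with 4 of 8 genes lower and 2 higher in WT. Slc16a1 and Slc16a6, carriers of monocarboxylates, rose in WT by 1.47 ± 0.42 and 1.35 ± 0.36 (SE) on the log2 scale (edgeR adjusted p = 0.0241 and 0.0191). The WT call of Slc16a1 was lost without W1, K5, R3, O3 or N3, and that of Slc16a6 without W1, K5, R3 or O3.

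Of 24 tested genes among other PPARA targets and lipid supply, 5 fell and 3 rose in WT (median -0.18). The share that rose was below the 17.9% of all genes. Fgf21, a secreted hormone under PPARA in liver, rose: it had 128, 76.4 and 69.4 CPM in WT with cerulein, against 4.79, 4.67 and 3.74 CPM in WT with saline (log2 fold change 4.37 ± 1.22 SE, edgeR adjusted p = 0.0223). Fgf21 had 293 (C2), 200 (L4) and 1.97 (C3) CPM in labelled KO with cerulein, against 2.34, 5.88 and 11.8 CPM with saline. Only C3 of the 6 cerulein libraries was at the saline level, and it was the lowest of the 12. Lpin1, a phosphatidate phosphatase that also assists PPARA in liver, fell by 2.69 ± 0.85 (SE) on the log2 scale in WT (edgeR adjusted p = 0.0353). The call of Fgf21 was lost without W1, K5, R3, O1 or O3, with no filter on low counts and in limma-voom, and that of Lpin1 without the same libraries, with no filter and with library totals.

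Of 19 tested nuclear receptors and coregulators, 5 fell and 6 rose in WT (median 0.00). Klf15, a factor of the fasting state that drives lipid use in muscle and heart, had 5.27, 3.82 and 3.89 CPM in WT with cerulein, against 79.7, 126 and 91.1 CPM in WT with saline. The groups were far apart (log2 fold change -4.51 ± 0.82 SE, edgeR adjusted p = 0.00918). Pprc1, a relative of the PPARGC1 coactivators, and Nrip1, a corepressor of nuclear receptors, rose by 2.47 ± 0.44 and 2.38 ± 0.47 (SE) on the log2 scale (edgeR adjusted p = 0.00918 each). Of 14 tested genes of fatty acid synthesis, 2 fell and 1 rose in WT (median -0.12), where 12.8% of all genes fell and 17.9% rose, so the count of falls was near that of all genes. Fads2 and Fads1, desaturases of polyunsaturated chains, fell by 1.26 ± 0.29 and 0.83 ± 0.18 (SE) and Srebf1, the factor of lipid synthesis, rose by 0.65 ± 0.22 (SE) on the log2 scale (edgeR adjusted p = 0.0114, 0.0105 and 0.0407). The calls of Fads1 and Fads2 were lost with library totals, and that of Srebf1 without W1, K5, R3, O1, O3, S1, K4 or Q1. Without C3, in labelled KO, 13 of the 19 genes of the mitochondrial list fell and 1 rose, and 8 of 20 tested genes of the peroxisomal list fell and 2 rose. Of the ketone list 4 of 8 fell and 2 rose, of other PPARA targets 7 of 24 fell and 3 rose, of receptors and coregulators 3 of 19 fell and 6 rose, and of fatty acid synthesis 1 of 14 fell and 1 rose. Over all genes tested 10.5% fell and 18.7% rose in that fit. The rises in the mitochondrial and peroxisomal lists and among other PPARA targets were below these shares, as were both counts of fatty acid synthesis. In labelled KO in that fit, 13 of the 15 named genes passed in the same direction as in WT, and Nudt7 and Fads2 did not pass. The 15 genes were chosen for large changes in WT. The matching share of all genes called in WT was not counted, so whether 13 of 15 is high is not known here.

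**Figure D5:**
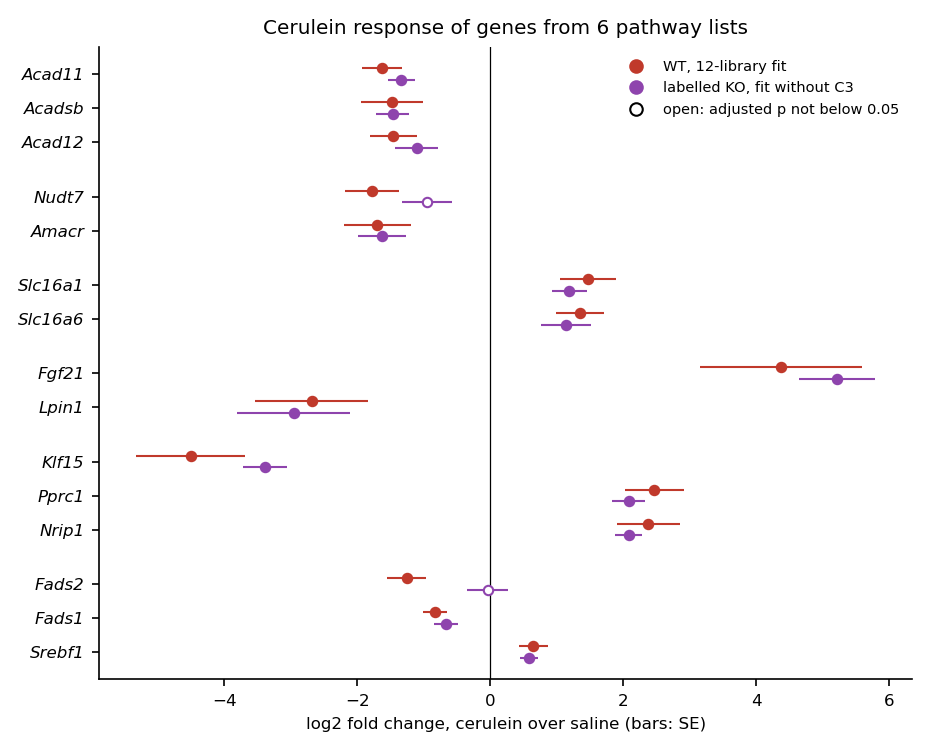
Log2 fold change of cerulein over saline (horizontal axis, bars are SE) for 15 named genes of 6 pathway lists, in WT from the fit of 12 libraries and in labelled KO from the fit without C3. Filled points have an edgeR adjusted p below 0.05. Klf15 (-4.51 ± 0.82 in WT) lies furthest left, and Fgf21 (4.37 ± 1.22) furthest right.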

How the data were processed

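Total RNA of whole mouse pancreas was sequenced in 12 libraries of 4 groups, 3 animals each, from a stranded total RNA kit per the labels' protocols. The authors deposited raw read counts per Ensembl gene for each library. HTSeq, DESeq2 and the build mm10 are named without versions in the submitters' processing notes, and no aligner or strand setting is given in the sources used here. Depth was 18292997 to 32158629 counts per library, which leaves Ppara, Ppargc1b, Acot1 and Acot2 with 1 to 132 counts in a library.

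Of 49585 gene IDs, 49326 matched GENCODE release M21 (GRCm38), among them all 31 genes of the set. The main test was edgeR's quasi-likelihood test (edgeR 4.0.16 and limma 3.58.1 in R 4.3.3) on 1 fit of all 12 libraries with 4 group means, filterByExpr (14329 genes), TMM scaling, robust dispersion and Benjamini-Hochberg adjustment over all genes at 0.05. The fit without C3 kept 14733 genes. The standard error (SE) was taken from the log2 fold change and its F statistic. The fit was tested on simulated counts. Alternatives were DESeq2 1.42.0, limma-voom, other scalings and filters, and leaving out each library. Fits with library totals in place of TMM, without several libraries at once, and with other tools without C3 were added after seeing the data.

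The genes of the set and all lists were chosen with earlier results of these data known. All members are named, and of each pathway list the 3 genes with the largest absolute log2 fold change past the threshold in WT, of which 2 are not reported here. Exon lengths are the union over all transcripts, and promoter windows come from RefSeq (GRCm38.p6). Tables and plots used Python 3.11.15, pandas 2.3.3, NumPy 2.4.6 and matplotlib 3.10.9.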

Additional observations from a re-analysis of the deposited data

How the results depend on the processing

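In WT, the number of the 29 genes lower with cerulein was 16 and ran from 7 to 19 when 1 library was left out. For labelled KO it was 0 and ran from 0 to 19 when 1 library was left out, with the 19 in the fit without C3. It was 2 in DESeq2 with 12 libraries. In fits added after seeing the data it was 19 without C3 and N3, 17 without C3, N3 and K4, and 15 without C3, N3, K4 and L4, where 12.2%, 12.7% and 8.22% of all genes fell. Without C3 it was 20 in DESeq2, 19 in limma-voom, 20 with DESeq2 size factors and 13 with library totals, where 12.6%, 11.0%, 11.3% and 4.5% of all genes fell. DESeq2 called 1 gene, Acot2, higher in labelled KO than in WT with cerulein. The cause of these changes was not tested.

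Some log2 fold changes changed sign, none past the threshold. In WT, Esrra had 0.01 with no filter, 0.01 without O3, 0.02 without N3, 0.02 without C3 and N3, and 0.25 with library totals, with C3 or without. Pdk4 had 0.10 in WT with library totals, with C3 or without. In the labelled KO, Esrra had 0.05 and Pdk4 0.16 with library totals without C3, and Acadvl had 0.04 with library totals. Pdk4 had 0.13 without Q1 and 0.29 without C3, N3, K4 and L4, a fit that left only C2 in labelled KO with cerulein. Bdh1 had 0.14 without S1. Over the fits without 1 library, Esrra ran from -0.13 to 0.02 in WT, and Bdh1 from -0.60 to 0.14 and Pdk4 from -1.66 to 0.13 in labelled KO. The difference of the Acot1 responses, labelled KO minus WT, was 2.45 with 12 libraries, 0.34 without C3 and -0.04 without C3, N3 and K4.

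Library totals moved the median log2 fold change of all genes to 0.34 in WT and 0.30 in labelled KO without C3, and the calls in WT to 3195 higher and 881 lower, against 2568 higher and 1831 lower with TMM. In labelled KO without C3 they gave 3920 higher and 663 lower, against 2756 and 1550 with TMM.

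No paired analysis was possible because the groups have no replicate code in common. With 3 animals a group, or 2 without C3, differences between the genotype labels that are small beside the spread between animals were not detectable, and the p-values cover only the spread between these animals.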

Other observations

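Ratios of genes that work in pairs were computed per kb of exon in each library, with no test. The ratio of Hadha to Hadhb, the subunits of the trifunctional protein, was 1.65 to 2.63 in WT with cerulein and 1.68 to 1.84 in WT with saline, and these ranges overlapped. The labelled KO libraries had 2.12 (C2), 2.44 (L4) and 1.60 (C3) with cerulein and 1.54 to 1.80 with saline. The ratio of Etfa to Etfb, the subunits of the electron transfer flavoprotein, was 7.59 to 9.64 in WT with cerulein and 5.33 to 8.11 in WT with saline. The labelled KO ratios were 9.87 (C2), 8.66 (L4) and 6.87 (C3) with cerulein and 5.78 to 6.93 with saline. In both pairs C2 and L4 lay above the saline libraries of their genotype label and C3 within their range.

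The ratio of Acot1 to Acot2 was 0.252 to 0.331 in WT with cerulein and 0.616 to 1.65 in WT with saline. Labelled KO libraries had ratios of 0.0285 (L4), 0.0600 (C2) and 0.549 (C3) with cerulein and 0.496 to 0.863 with saline. C2 and L4, with only 9 and 3 counts of Acot1, lay below all other libraries, and C3 within the saline range of its genotype label. How the counting treated reads shared between the genes of a pair or with pseudogenes is not known here.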
